A study of Mus musculus with 1279 samples.

Results

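The genes described here are the solute carriers of mouse heart stromal cells, the membrane proteins that move ions, sugars, amino acids, nucleotides and metals across the plasma membrane and the membranes of mitochondria, Golgi and lysosomes. They were chosen by symbol, Slc followed by a digit with Slc40a1 and Slc43a3 left out, and selected on level, a mean over all cells of 10 CPM or more, where CPM is a count scaled to one common library size. This took 38.2% of the 377 such symbols in the count table, 333 of which had at least 1 count, and 0.310% of 46517 genes in all. Because the mean level chose them, levels over all cells are given as a description without a test. The symbol rule also took Slc9a3r1 and Slc9a3r2, which encode scaffold proteins, Slc4a1ap, an adaptor named after an anion exchanger, and Slc7a6os, named for lying opposite Slc7a6. These 4 genes are not carriers themselves.

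The cells were 926 fibroblasts and 353 mural cells of the adult heart, made into full-length cDNA by Smart-seq2, a plate method without molecular identifiers, and sorted from 4 strains of male mice aged 10 to 20 weeks. C57BL6 cells were sorted with antibodies. PdgfrbGFP, Cspg4dsRED and Acta2GFP cells were sorted for fluorescent reporters driven by sequences of Pdgfrb, Cspg4 and Acta2, in mice crossed back to C57BL6, and cells bearing CD31 were kept out. Elastase was added in the isolation of Acta2GFP cells. Each reporter strain came from 1 plate and the C57BL6 cells from 3, 1 of which gave 1 cell, so strain, sort and plate cannot be told apart. Where 4 CPM values of a gene follow each other, they are for C57BL6, PdgfrbGFP, Cspg4dsRED and Acta2GFP in this order. Clusters 1 to 5 are fibroblasts in the study, cluster 1 likely valve interstitial cells. Clusters 6 to 8 were taken as mural cells, the smooth muscle cells and pericytes that wrap vessels, and their summed Rgs5, Notch3, Mcam, Des and Cspg4 was 7923 CPM against 155.4 CPM in fibroblasts. Cluster 6 stood apart from clusters 7 and 8, with 1693 CPM of these markers against 7523 and 9440 CPM, and its fibroblast markers (Pdgfra, Dcn, Lum, Col1a1 and Col3a1) summed to 6297 CPM, from 2709 to 13185 CPM by strain, against a mean of 12170 CPM in fibroblasts. Its place among mural cells is therefore uncertain. Smooth muscle markers summed to 11450 and 12725 CPM in clusters 6 and 7. In cluster 8 they summed to 1510 CPM, from 201.1 to 4033 CPM by strain. Pericyte markers reached 17298 CPM in cluster 8, from 6942 to 23596 CPM by strain. In cluster 7 they summed to 4773 CPM, from 2486 to 8974 CPM, so the ranges of clusters 7 and 8 overlapped. Total counts per cell ran from 46268 to 1302397 with a median of 274504. The median number of members with a count was 71 per cell in Acta2GFP, where the median cell had 6388 genes, and 35 to 41 in the other strains, where it had 3358 to 4265.

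Carriers are grouped into families by sequence, and the family number roughly gives the substrate. Secondary active carriers use a gradient of sodium, chloride or protons, and facilitators let their substrate run down its own gradient. Most of the Slc25 family sits in the inner mitochondrial membrane. In vessels and heart the best known are the insulin-responsive glucose carrier Slc2a4, the adenosine carrier Slc29a1, which ends adenosine signalling by uptake, the chloride-loading cotransporter Slc12a2 and the ADP/ATP carrier Slc25a4. The members held 27 of 48 mitochondrial carriers, 22 of 66 carriers of ions and pH, 21 of 65 of amino acids, 20 of 34 of nucleotide sugars and nucleosides, 19 of 64 of sugars and organic acids, and 18 of 29 of metals. Another 8 of 50 were carriers of vitamins, peptides, heme and organic ions, 5 of 12 of lipids and choline, and the rest were the 2 scaffolds, Slc4a1ap and Slc7a6os. These groups follow the family number, so not every Slc25 gene counted as mitochondrial need sit in that membrane. Single members carry other substrates than their group's name says, as Slc16a10 and Slc16a12 do. Together the members took 0.971% of all counts.

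Promoter windows are shown for the members with the largest fitted fold change in each direction between fibroblasts and mural cells, among those that passed a test. Of the 10 members that passed a test below, 7 had a window in the RefSeq promoter table (GRCm38.p6), each running from 250 bases before to 50 bases after a start. The windows below are those of Slc1a3 and Slc38a11, chosen as the members highest in fibroblasts and in mural cells by fitted fold change, and capitals mark GGGCGG (the GC box) and TATAAA (the TATA box) on either strand. The Slc1a3 window, chr15:8710758-8711057 on the minus strand, was 45.3% G or C and held 1 of each motif, while that of Slc38a11, chr2:65363977-65364276 on the minus strand, was 60% G or C and held 2 GC boxes and no TATA box. Among 32851 windows of the table the median was 52.7% G or C, 35.7% held a GC box and 13.6% a TATA box.
Slc1a3: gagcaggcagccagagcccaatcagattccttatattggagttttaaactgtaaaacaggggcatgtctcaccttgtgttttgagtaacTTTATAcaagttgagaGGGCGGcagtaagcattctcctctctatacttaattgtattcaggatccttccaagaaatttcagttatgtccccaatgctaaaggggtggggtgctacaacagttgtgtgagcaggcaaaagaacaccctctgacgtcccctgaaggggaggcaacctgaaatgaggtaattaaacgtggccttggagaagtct
Slc38a11: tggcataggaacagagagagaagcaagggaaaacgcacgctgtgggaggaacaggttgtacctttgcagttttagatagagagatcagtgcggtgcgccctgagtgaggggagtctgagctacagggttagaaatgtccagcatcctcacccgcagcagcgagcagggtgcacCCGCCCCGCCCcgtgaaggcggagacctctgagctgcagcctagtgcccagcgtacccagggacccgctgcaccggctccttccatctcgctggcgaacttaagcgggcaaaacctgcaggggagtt
A match is a string of letters only. Binding and chromatin were not analysed here.

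Levels of different genes were compared per kilobase of merged exons. That length joins the exons of all annotated transcripts, so it can exceed the main transcript and lower a gene's place. On this scale the ADP/ATP carrier Slc25a4 stood first with 298 CPM per kb. Next came the sugar carrier Slc50a1 with 164.5, Slc29a1 with 129.2, the neutral amino acid and glutamine carrier Slc1a5 with 123.6, and the other abundant ADP/ATP carrier Slc25a5 with 123.5 CPM per kb. The mitochondrial phosphate carrier Slc25a3 followed with 98.3, the zinc carriers Slc39a7 and Slc39a1 with 94.7 and 82.9, the oxoglutarate carrier Slc25a11 with 76.8 and the heme carrier Slc48a1 with 70.2 CPM per kb. The 10 thus held 4 mitochondrial carriers. The median member was at 5.94 CPM per kb. A count of Slc25a4 was present in 97.4% of cells and one of Slc29a1 in 91.2%, whereas the median member was counted in 22.4% of cells. Most members were thin in single cells, and for the median member 34.8% of the summed CPM lay in the 13 cells with the highest values. Exons of Slc39a7 overlap Gm20427 on the same strand, and those of Slc29a1, Slc25a11 and Slc48a1 overlap Gm17080, Rnf167 and Hdac7 on the other strand. The strand setting of the counting was not stated, so reads could have been split or shared there. Slc25a4 and Slc25a5 are close paralogs with processed copies in the genome, and their split is uncertain for the same kind of reason.

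**Figure D1:**
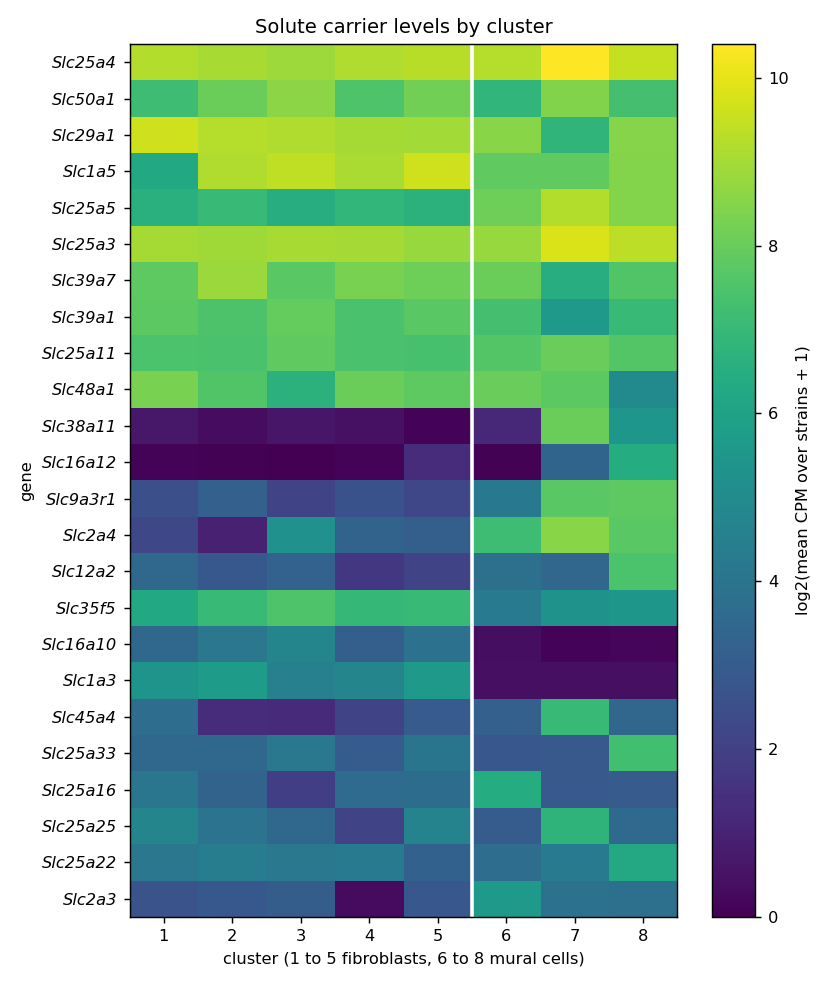
Levels of 24 members by cluster, as log2 of the mean CPM over strains plus 1, where colour gives the level and the white line parts fibroblast clusters 1 to 5 from mural clusters 6 to 8. Shown are the 10 members highest per kb (top), those that passed the test between fibroblasts and mural cells, and those at least 3 times higher in 1 cluster than in the next; Slc1a3 and Slc16a10 are near 0 in clusters 6 to 8 and Slc38a11 and Slc16a12 in clusters 1 to 5.

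The rule set a level of 10 CPM. Just inside it lay Slc30a4 with 10.6, Slc35d1 with 10.5 and Slc16a10 with 10.01 CPM, and just outside Slc15a3 with 9.56, Slc25a42 with 9.51 and Slc35e3 with 9.49 CPM. Slc16a10, the last gene in, appears again below. The monocarboxylate carrier Slc16a1 and the sodium/calcium exchanger Slc8a1, with 9.45 and 9.31 CPM, were also outside.

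A few carriers differed between fibroblasts and mural cells by a large factor, and most did not pass the test. Counts were summed per strain and side, so that n = 4 strains, and compared by the edgeR quasi-likelihood test with Benjamini-Hochberg adjustment over all genes tested. Values after ± are SDs over strains. All members but 1 were tested (Slc9a9 had too few counts), and 9 passed an adjusted p of 0.05, or 6.29%, against 896 of 15117 genes, or 5.93%. The 3 members higher in fibroblasts were 2.10% of those tested (3.47% of all genes) and the 6 lower ones 4.20% (2.45% of all genes). Of the 9, 7 were under 10 CPM on the side where they were low (all but Slc25a5 and Slc35f5), so they met the level rule through the side where they were high, and their count is a description. The same rule acts on other genes, and among the 10094 tested genes at a mean of 10 CPM or more 7.3% passed, 3.93% higher and 3.37% lower in fibroblasts. Without clusters 1 and 6, 10 members passed, beside 1049 of 14432 genes in all. The median fitted log2 fold change was 0.19 over members and -0.02 over all genes, and 30 members, or 21%, had an unadjusted p under 0.05 against 17% of all genes. The sums of the 4 strains did not overlap for 22 members, against 14.7% of all genes. Clusters came from the same counts, so these p-values speak for the agreement of strains and not for the existence of the clusters, and nothing in the labels says which cells shared an animal.

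Slc2a4 (ENSMUSG00000018566, chr11:69942539-69948188), the glucose carrier GLUT4 that insulin moves to the surface of muscle and fat cells, was higher in mural cells in every strain. Its level in fibroblasts was 10.6, 7.6, 4.3 and 12.96 CPM. In mural cells it was 304, 232.3, 211.3 and 359 CPM. The lowest mural value was thus far above the highest fibroblast value, and the fold was large (log2 -4.97, SE 0.43, edgeR adjusted p = 0.000257). A count was present in 49.3% of mural cells (95% Wilson interval 44.1 to 54.5) and 17.1% of fibroblasts (14.8 to 19.6). Within mural cells the mean over strains was 375 CPM ± 97.9 (SD, n = 3) in cluster 7, 215.3 ± 102.7 (n = 4) in cluster 8 and 143.6 ± 220 (n = 3) in cluster 6, where single strains ran from 0.98 to 397 CPM. The call held under all 10 other settings tried. Heart muscle also uses this carrier, and the 9 cardiac muscle markers, none of them at 0, summed to 251.6 to 927 CPM in mural cells and 23.7 to 118.9 CPM in fibroblasts. The larger part of the mural sum was Pln with 347 CPM, a gene smooth muscle also uses, while Myh6 was at 15.9 CPM in mural cells and 6.63 CPM in fibroblasts. The part of these cells in the Slc2a4 level was not tested.

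Other glucose carriers did not pass. Slc2a1, the widely used GLUT1, had 32.7 CPM ± 18.7 in fibroblasts and 88.9 ± 51.97 in mural cells (log2 -1.47, SE 0.53, edgeR adjusted p = 0.168). It was lower in fibroblasts in each of the 4 strains. Slc2a3, the high-affinity GLUT3, was highest in cluster 6 with a mean of 48.1 CPM, which rested on 133.2 CPM in the 3 C57BL6 cells against 0.19 CPM in Cspg4dsRED and 10.8 CPM in Acta2GFP.

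Slc25a5 (ENSMUSG00000016319, chrX:36795651-36798807), the ADP/ATP carrier that dividing and non-muscle cells use, was also higher in mural cells. Fibroblast levels were 121.6, 104.1, 134.3 and 97.01 CPM, and mural levels 473, 466, 394 and 409 CPM. The strains lay close together on both sides, and did not overlap (log2 -1.95, SE 0.24, edgeR adjusted p = 0.00140), and the call held under all 10 other settings. Slc25a4, the carrier typical of heart and muscle, went the same way in each strain but did not pass, with 549 CPM ± 72.6 in fibroblasts and 902 ± 145.5 in mural cells (log2 -0.73, SE 0.26, edgeR adjusted p = 0.152). Its level was 1352 CPM ± 375 (SD, n = 3) in cluster 7 and 716 ± 203.3 (n = 4) in cluster 8. The cardiac muscle markers, described above for Slc2a4, moved with it, at a sum of 1263 to 2016 CPM by strain in cluster 7 and 97.8 to 325 CPM in cluster 8, most of it in cluster 7 from Pln with 1141 CPM, and their part was not tested. Slc25a3 had 486 CPM ± 82.9 in fibroblasts and 720 ± 55.9 in mural cells (log2 -0.58, edgeR adjusted p = 0.249), and the aspartate/glutamate carrier Slc25a12, named after its values were seen, had 103.9 ± 6.08 and 197.1 ± 29.9 (log2 -0.94, edgeR adjusted p = 0.0627). The latter passed under 4 of the 10 other settings. Over the 27 mitochondrial carriers 1 fell and 26 did not pass, and their median log2 fold change was -0.02.

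Slc9a3r1 (ENSMUSG00000020733, chr11:115163341-115181181) encodes NHERF1, a scaffold that ties membrane proteins to the actin cortex. Fibroblasts had 5.0, 6.0, 0.85 and 11.2 CPM. Mural cells had 290, 401, 99.5 and 159.1 CPM, all above every fibroblast value (log2 -5.39, SE 0.79, edgeR adjusted p = 0.00355). It was near the same mean in cluster 7 (210.6 CPM) and cluster 8 (222.4 CPM) but 17.5 CPM ± 15.4 (SD, n = 3) in cluster 6. The other scaffold, Slc9a3r2, had 102.5 CPM ± 27.8 in fibroblasts and 122.4 ± 17.9 in mural cells (n = 4).

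Slc12a2 (ENSMUSG00000024597, chr18:57878678-57946821), the sodium, potassium and chloride cotransporter NKCC1, had 7.2, 4.5, 5.8 and 4.6 CPM in fibroblasts. In mural cells it had 153.5, 110, 94.5 and 9.2 CPM. Acta2GFP mural cells were thus the lowest and close to fibroblasts, though still above them (log2 -4.08, SE 0.75, edgeR adjusted p = 0.0106). The difference did not pass in limma-voom (adjusted p = 0.0822), with strain as a replicate block (0.0510) or without C57BL6 (0.0718), PdgfrbGFP (0.0755) or Cspg4dsRED (0.0588). Its mural level sat in cluster 8, and in that cluster too Acta2GFP was low. Cluster 8 had 180, 121.8, 386 and 10.01 CPM, while the highest value in clusters 6 and 7 was 40.4 CPM. Pericyte and smooth muscle markers of cluster 8 also varied by strain, as given above, and their part in this level was not tested.

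Slc38a11 (ENSMUSG00000061171, chr2:65316430-65364034), a member of the family of sodium-coupled neutral amino acid carriers, was nearly without counts in fibroblasts, at 0.084, 0.11, 0.38 and 1.01 CPM. Mural cells had no count in C57BL6, where 3 counts would have been 0.347 CPM, and 51.9, 104.9 and 127.4 CPM in the other strains. C57BL6 held 1 cell of cluster 7, the cluster where the gene was highest, against 9, 75 and 33 cells in the other strains. The difference (log2 -7.55, SE 1.75, edgeR adjusted p = 0.0313) had its direction in 3 of 4 strains and did not pass in limma-voom (adjusted p = 0.0932), with the replicate block (0.114) or without PdgfrbGFP (0.129), Cspg4dsRED (0.123) or Acta2GFP (0.0987). Cluster 7 itself had 472, 190 and 148.9 CPM in PdgfrbGFP, Cspg4dsRED and Acta2GFP, with a count in 69.2% of its cells (95% Wilson interval 60.4 to 76.9).

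Slc16a12 (ENSMUSG00000009378, chr19:34668403-34747289), a creatine carrier, had 0.85 and 0.25 CPM in fibroblasts of C57BL6 and PdgfrbGFP and no count in those of Cspg4dsRED and Acta2GFP. Mural cells had 41.7, 121.7, 31.1 and 1.02 CPM (log2 -7.37, SE 1.79, edgeR adjusted p = 0.0385). Again Acta2GFP was lowest, and the difference did not pass without C57BL6 (adjusted p = 0.0850), PdgfrbGFP (0.221) or Cspg4dsRED (0.102). A count was found in 26.5% of cluster 8 cells and 4.27% of cluster 7 cells. With 71.04% of the summed CPM in 13 cells it was among the most unevenly counted members.

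On the fibroblast side, Slc1a3 (ENSMUSG00000005360, chr15:8634124-8710764), the glutamate carrier GLAST known from glia, had 31.9, 58.9, 17.2 and 39.4 CPM. Mural cells had 0.12, 0.34, 0.51 and 0.59 CPM, which were 1, 7, 18 and 12 counts. No mural sum came near a fibroblast sum (log2 6.54, SE 0.86, edgeR adjusted p = 0.00187), and the call held under all 10 other settings. All 5 fibroblast clusters had it, from 22.2 CPM in cluster 3 to 50.8 CPM in cluster 2.

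Slc16a10 (ENSMUSG00000019838, chr10:40033532-40142258), a carrier of aromatic amino acids and thyroid hormone, had 18.9, 7.1, 11.1 and 16.4 CPM in fibroblasts and 0.12, 0.097, 0.31 and 0.20 CPM in mural cells. The mural values were 1, 2, 11 and 4 counts (log2 6.14, SE 1.01, edgeR adjusted p = 0.00632). Without C57BL6 or Acta2GFP the adjusted p was 0.0512 and 0.0611. Slc35f5 (ENSMUSG00000026342, chr1:125560595-125595820), placed with the nucleotide sugar carriers by sequence, differed less but evenly. Fibroblasts had 91.5, 153.1, 133.99 and 125.5 CPM and mural cells 42.04, 50.6, 54.3 and 45.5 CPM (log2 1.38, SE 0.30, edgeR adjusted p = 0.0231). Its strains do not overlap, yet it passed under 4 of the 10 other settings, and leaving out any 1 strain gave an edgeR adjusted p from 0.0690 to 0.112. It also did not pass in limma-voom (adjusted p = 0.0525).

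**Figure D2:**
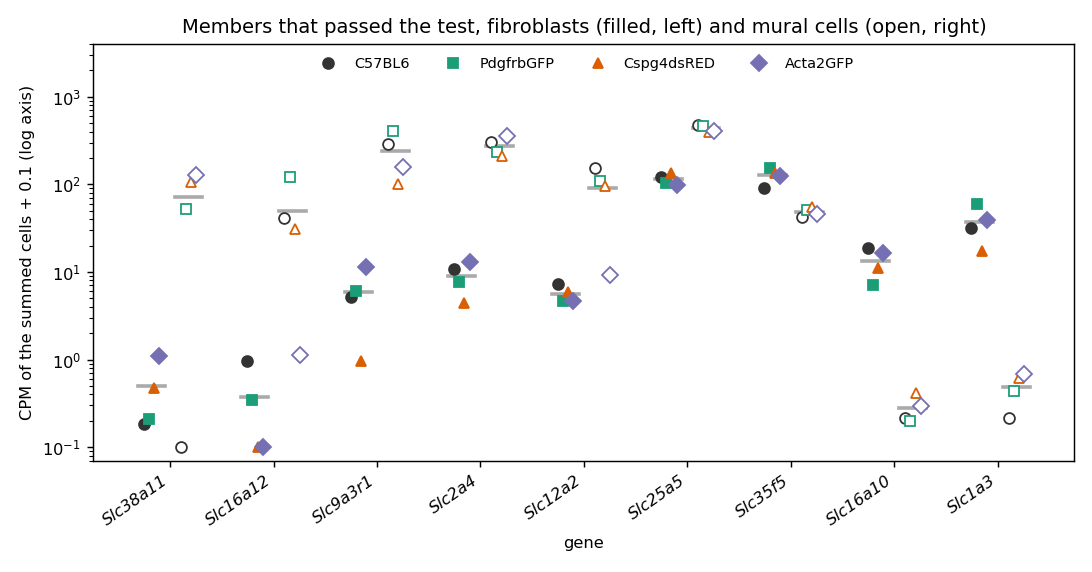
CPM of the summed cells plus 0.1, on a log axis, for the 9 members that passed between fibroblasts (filled, left) and mural cells (open, right), 1 point per strain with a grey bar at the mean. Among mural cells C57BL6 lies at the bottom for Slc38a11, the 1 gene whose sides overlap, and Acta2GFP for Slc16a12 and Slc12a2, where it comes close to the fibroblasts.

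By group of families and not by the substrate of each member, the 21 members of the amino acid families held 1 that rose in fibroblasts (Slc1a3), 1 that fell (Slc38a11) and 19 that did not pass. Of 19 members of the families named for sugars and organic acids, 1 rose (Slc16a10, which carries aromatic amino acids), 2 fell (Slc2a4, and Slc16a12, which carries creatine) and 16 did not pass. Of 21 tested carriers of ions and pH 1 fell (Slc12a2), and of 20 carriers of nucleotide sugars and nucleosides 1 rose (Slc35f5). None of the 18 metal carriers, the 8 carriers of vitamins, peptides, heme and organic ions or the 5 carriers of lipids and choline passed in edgeR. Over all genes tested 3.47% were higher and 2.45% lower in fibroblasts, and in groups this small nothing is read from a count of 0 to 2. Among abundant members without a call, Slc29a1 had 577 CPM ± 137.2 in fibroblasts and 307 ± 60.3 in mural cells (log2 0.89, edgeR adjusted p = 0.0988). Slc1a5 had 549 ± 144.5 and 250.8 ± 132.9 (log2 1.14, adjusted p = 0.126 in edgeR). Slc3a2, the heavy chain that carries amino acid exchangers to the surface, had 234.8 ± 57.1 and 131.9 ± 36.95 (log2 0.82, adjusted p = 0.157 in edgeR), and Slc38a2, the stress-responsive neutral amino acid carrier, 146.1 ± 44.7 and 257.8 ± 127.9 (log2 -0.83, adjusted p = 0.271 in edgeR). All 4 had the same direction in 4 of 4 strains.

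Other members followed for their known roles or their level per kb did not pass. Slc39a7 had 338 CPM ± 86.2 in fibroblasts and 195.2 ± 41.4 in mural cells (log2 0.76, edgeR adjusted p = 0.154). Slc50a1, Slc39a1, Slc25a11 and Slc48a1 had log2 fold changes of 0.43, 0.62, -0.39 and 0.68 with edgeR adjusted p from 0.652 to 0.849. Slc48a1 varied most, with 224.3 CPM ± 17 in fibroblasts and 143.6 ± 160 in mural cells. The taurine carrier Slc6a6 had 48.3 ± 20.6 and 60.3 ± 11.6 CPM, Slc20a1 19.3 ± 14.99 and 29.8 ± 5.45, and the zinc and iron carrier Slc39a14 13.7 ± 10.4 and 16.04 ± 3.87. None of these passed, with edgeR adjusted p from 0.721 to 0.918. Slc7a5, the light chain partner of Slc3a2, was below the level of the rule.

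**Figure D3:**
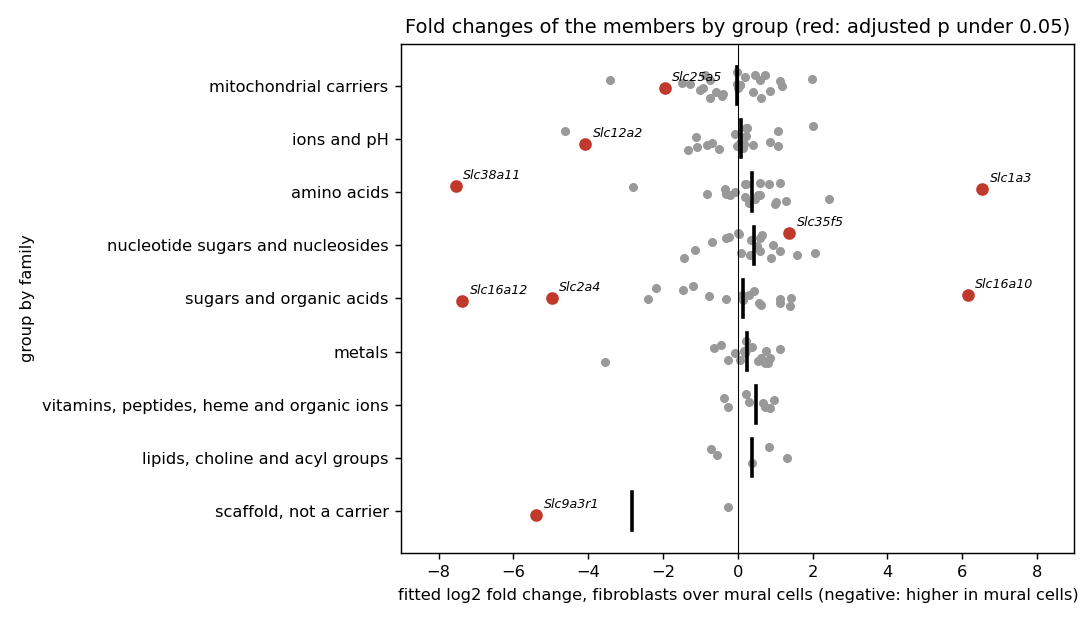
Fitted log2 fold change of the tested members, fibroblasts over mural cells, by group of families, 1 point per gene, with red points for an adjusted p under 0.05 and a black bar at the group's median. The medians of the 8 groups of carriers lie between -0.02 and 0.48, and the 9 red points stand far to either side except Slc35f5 and Slc25a5.

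Enzymes and partners of these carriers, 30 genes listed beside them of which 25 were tested, gave 1 gene higher and 1 lower in fibroblasts, against 3.47% and 2.45% of all genes, from which nothing is read about the list. Glul, which makes glutamine from glutamate, had 210.8 CPM ± 86.3 in fibroblasts and 42.2 ± 31.4 in mural cells (log2 2.34, SE 0.55, edgeR adjusted p = 0.0319). Ldhb, the lactate dehydrogenase subunit of oxidative tissue, had 119.02 ± 25.4 and 448 ± 103.3 (log2 -1.93, SE 0.30, edgeR adjusted p = 0.00479).

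Cluster 1, the likely valve interstitial cells, had 1 member that passed against the other fibroblasts. Of 140 members tested 1 passed, or 0.714%, against 1.33% of 13201 genes (0.561% higher and 0.773% lower). At an unadjusted p under 0.05 there were 9 members, or 6.43%, against 8.87% of all genes, and DESeq2 called 4 (2.86%, against 5.22%). The member that passed was Slc1a5 (ENSMUSG00000001918, chr7:16781340-16798274), with 60.7, 83.1, 56.8 and 116.1 CPM. Clusters 2 to 5 had 737, 613, 386 and 694 CPM. The highest value in cluster 1 was below the lowest elsewhere (log2 -2.93, SE 0.36, edgeR adjusted p = 0.00293). Without C57BL6 the adjusted p was 0.0576, and 0 members passed. With strain as a replicate block 98 genes passed, Slc1a5 among them (adjusted p = 0.00960). A count was present in 84.3% of cluster 1 cells against 93.1% in clusters 2 to 5. Mural clusters 6 to 8 lay between, at 233.7, 233.97 and 354 CPM. Cells of cluster 1 were few, 19, 22, 3 and 26 by strain. Some markers of other cell types were higher there too, with S100b, known from Schwann cells and other types, at 63.9 to 402 CPM by strain against 0.951 to 8.59 CPM in clusters 2 to 5. The whole list of 3 Schwann markers summed to 63.95 to 406 CPM against 1.29 to 11.4 CPM, so the others on it added little at either end of the cluster 1 range. The pericyte markers summed to 162.9 to 849 CPM against 100.5 to 154.3 CPM. Their part in the Slc1a5 level was not tested. The cationic amino acid carrier Slc7a2, also named after its values were seen, had 149.4 CPM ± 80.3 in cluster 1 and 43.8 ± 14.3 in clusters 2 to 5 (log2 1.73, edgeR adjusted p = 0.185), and Slc29a1 793 ± 173.7 and 543 ± 162.2 (log2 0.55, edgeR adjusted p = 0.685). The phosphate carrier Slc20a1 rested on 3 cells there, with 252.97 CPM in Cspg4dsRED and 0 to 26.6 CPM in the other strains. Of the 25 listed partner genes tested 1 passed, Slco2b1, an organic anion carrier of another family, with 3.91 CPM there and 237.9 CPM elsewhere in clusters 2 to 5 (log2 -5.70, SE 0.82, edgeR adjusted p = 0.00740).

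Among clusters 2 to 5 no member passed when each was set against the others, and neither did any other gene. The share called was 0% of 13870, 14803, 14104 and 16214 genes for clusters 2, 3, 4 and 5, and 9, 4, 5 and 4 members had an unadjusted p under 0.05 (641, 895, 670 and 630 genes in all). DESeq2 called 1, 2, 2 and 1 members, against 1.22%, 2.61%, 1.30% and 0.765% of all genes, and the members called were 0.709%, 1.40%, 1.42% and 0.699% of those tested. With the replicate block 35 genes passed for cluster 3, none of them a member, and 0 genes passed for clusters 2, 4 and 5. Without a filter 1 member passed for cluster 5 (0.694%, against 0.119% of all genes) and none for clusters 2, 3 and 4.

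Pericytes and smooth muscle cells could be compared in 3 strains, PdgfrbGFP, Cspg4dsRED and Acta2GFP. Between cluster 8 and cluster 7, 11 members had too few counts for the test. Of the rest 0 passed in edgeR, against 23 of 11867 genes or 0.194%, and at an unadjusted p under 0.05 there were 14 (10.5%, against 6.88% of all genes). DESeq2 called 5 members (3.76%, against 3.20% of genes) and limma-voom 1 (0.752%, against 1.31%). With strain as a replicate block 82 genes passed and still no member. The largest contrast, chosen after its values were seen as was Slc8b1, was Slc38a1, the neutral amino acid carrier SNAT1, with 22.1, 101.1 and 73.3 CPM in cluster 8 and 0, 0.39 and 0.42 CPM in cluster 7 of PdgfrbGFP, Cspg4dsRED and Acta2GFP (log2 7.65, SE 1.95, edgeR adjusted p = 0.177). The sides did not overlap in these strains. It passed in DESeq2 (adjusted p = 2.25e-06) and limma-voom (0.0459). It was also high in cluster 6, with 187.7 CPM in Cspg4dsRED and 87.99 in Acta2GFP against 0 in C57BL6. Slc8b1, the mitochondrial sodium/calcium exchanger, had 140, 247.8 and 315 CPM in cluster 8 and 0, 10.4 and 43.1 CPM in cluster 7 (log2 3.74, SE 1.35, edgeR adjusted p = 0.457), again without overlap. Of the 21 listed partner genes tested 1 passed, Ckb, brain-type creatine kinase, with 260 CPM ± 52.2 in cluster 8 and 1502 ± 190.97 in cluster 7 (log2 -2.61, SE 0.45, edgeR adjusted p = 0.0455).

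Cluster 6 against clusters 7 and 8 gave 0 members in edgeR, with 7 members not tested, against 4 of 12117 genes or 0.0330%. At an unadjusted p under 0.05 there were 7 members (5.11%, against 5.74% of all genes), and DESeq2 called 5 (3.65%, against 2.81%). With the replicate block 0.883% of all genes passed, none of them a member. Cluster 6 had only 3 cells each in C57BL6 and Acta2GFP beside 33 in Cspg4dsRED. Slc38a2 was even across them, with 510 CPM ± 51.3 (SD, n = 3) in cluster 6 and 320 ± 128.9 (n = 3) and 195.1 ± 75.9 (n = 4) in clusters 7 and 8.

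A leading cluster, at least 3 times above the next by its mean over strains, was found for 9 members, or 6.25%, against 4.66% of the 10098 genes at 10 CPM or more. All 9 led in a mural cluster, as did 370 of the 471 such genes, and the mural means rest on few cells in some strains. In cluster 8 these were Slc12a2 (174.4 CPM, 12.9 times the next), Slc16a12 (86.5 CPM, 9.33 times), the pyrimidine nucleotide carrier Slc25a33 (150 CPM, 8.92 times) and the mitochondrial glutamate carrier Slc25a22 (77.4 CPM, 3.96 times). In cluster 7 they were Slc45a4 (126.7 CPM, 10.6 times), Slc38a11 (270 CPM, 6.31 times) and the ATP-magnesium/phosphate carrier Slc25a25 (107.1 CPM, 4.12 times). Cluster 6 led for Slc25a16 (85.3 CPM, 5.39 times) and Slc2a3 (48.1 CPM, 3.37 times). Slc25a33 had 217.2, 289.5, 62.4 and 32.6 CPM in cluster 8, each above all values of clusters 6 and 7, which reached 18.4 CPM. Between cluster 8 and cluster 7 it did not pass (log2 4.26, SE 1.35, edgeR adjusted p = 0.348). For Slc45a4 the cluster 7 mean came from 287.5, 73.5 and 19.2 CPM, and the cluster 8 value of Cspg4dsRED, 38.7 CPM, lay within that range. The lead of Slc38a11 over cluster 8, with a mean of 42.9 CPM there, was uneven, and in Acta2GFP its levels in clusters 7 and 8 lay close together. Slc25a25 had 130 and 188.8 CPM in cluster 7 of PdgfrbGFP and Cspg4dsRED and 2.51 CPM in Acta2GFP, so 1 strain of 3 did not share it. Slc25a16 rested on the 3 Acta2GFP cells, with 245.6 CPM against 0 and 10.3 CPM. Slc25a22 ran from 14.8 to 174.7 CPM across strains in cluster 8.

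**Figure D4:**
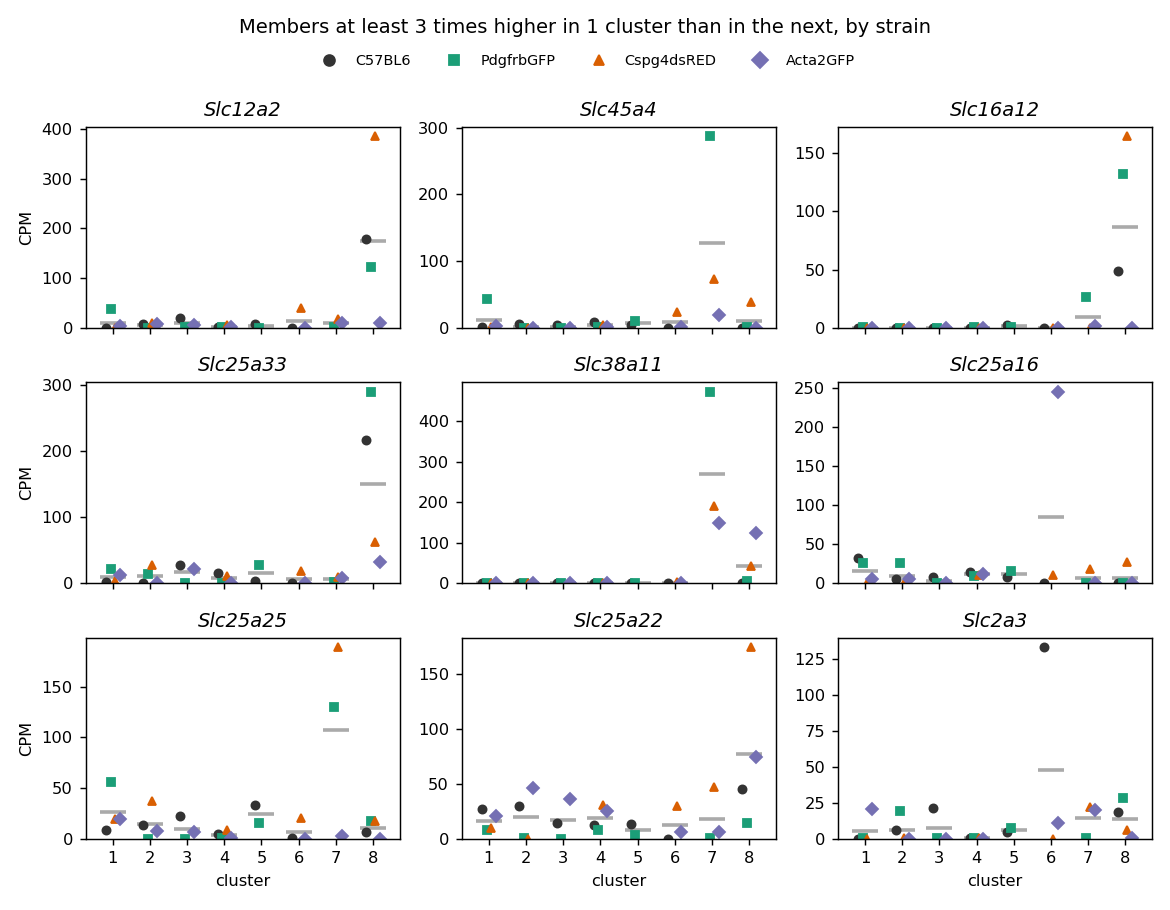
CPM by cluster and strain (symbols) for the 9 members at least 3 times higher in 1 cluster than in the next, with a grey bar at the mean over strains. In cluster 8 every strain of Slc25a33 lies above clusters 6 and 7, Acta2GFP lies near 0 in cluster 8 for Slc12a2 and Slc16a12, and single strains carry Slc25a16 and Slc2a3 in cluster 6.

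Strains differed among themselves in clusters 2 to 5, without a test, since each reporter strain was 1 capture. Between the C57BL6 plates with more than 1 cell, 23 members differed by 1 or more on the log2(CPM + 1) scale, or 16%, against 12% of the genes at 10 CPM or more. Against C57BL6, 24 members differed so far in PdgfrbGFP (16.7%, against 12.3% of these genes), 51 in Cspg4dsRED with its 23 cells (35.4%, against 31.7%), and 35 in Acta2GFP (24.3%, against 19.1%). Members higher than in C57BL6 by this much were 8 in PdgfrbGFP (5.56%, against 2.36%), 19 in Cspg4dsRED (13.2%, against 13.3%) and 23 in Acta2GFP (16%, against 10.4%). Lower by this much were 16, 32 and 12 members. PdgfrbGFP thus differed from C57BL6 by about as many members as 1 C57BL6 plate from the other. A pair of members lie within 500 kb of a gene whose sequences drive a reporter. Slc26a2, a sulfate carrier 107.9 kb from Pdgfrb, had 8.4, 35.8, 8.8 and 24.2 CPM in clusters 2 to 5, and the C57BL6 plates had 5.2 and 13.2 CPM. PdgfrbGFP was highest there, but in mural cells Acta2GFP was, with 43.9 CPM against 0.3, 20.7 and 1.7 CPM. Slc16a12, 413 kb from Acta2, was lowest in the Acta2GFP mural cells, as given above.

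Slc34a2 (ENSMUSG00000029188, chr5:53038081-53071664), the phosphate carrier of lung and gut epithelium, stood apart in how it was counted. It had a count in 86.8% of cells, a share below Slc25a4, Slc25a3 and Slc29a1 only among members, but a median of 2 counts where counted and never more than 18. Its mean count did not grow with sequencing depth. With cells ranked by total count and parted into 4 equal sets, it was 2.54 per cell in the set with the lowest totals (median 114094), then 2.53 and 2.21, and 2.09 in the set with the highest (median 478424). Its mean CPM therefore ran from 24.5 down to 4.16 over the same sets, whereas the mean count of Slc25a4 rose from 84.5 to 305. Over members the median ratio of mean counts, highest over lowest set, was 6.09, against 5.65 over the genes at 10 CPM or more, and 4 members were under 1 (2.78%, against 0.881% of these genes). The other three were Slc16a12, Slc25a33 and Slc9a3r1. All 4 were highest in cluster 8, whose PdgfrbGFP cells had a median total of 143791, though Slc34a2 by little, with 12.2 CPM against 10.6 CPM in cluster 5. Slc34a2 was the only gene of 10098 at 10 CPM or more with a count in 80% or more of cells and a highest count of 20 or less, limits set after its values were seen. From counts summed over all cells its level was 7.84 CPM, under the 10 CPM of the rule, and by strain it was 6.1, 12.1, 3.7 and 3.4 CPM in fibroblasts and 8.8, 26.2, 6.3 and 2.9 CPM in mural cells, highest in PdgfrbGFP on both sides.

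**Figure D5:**
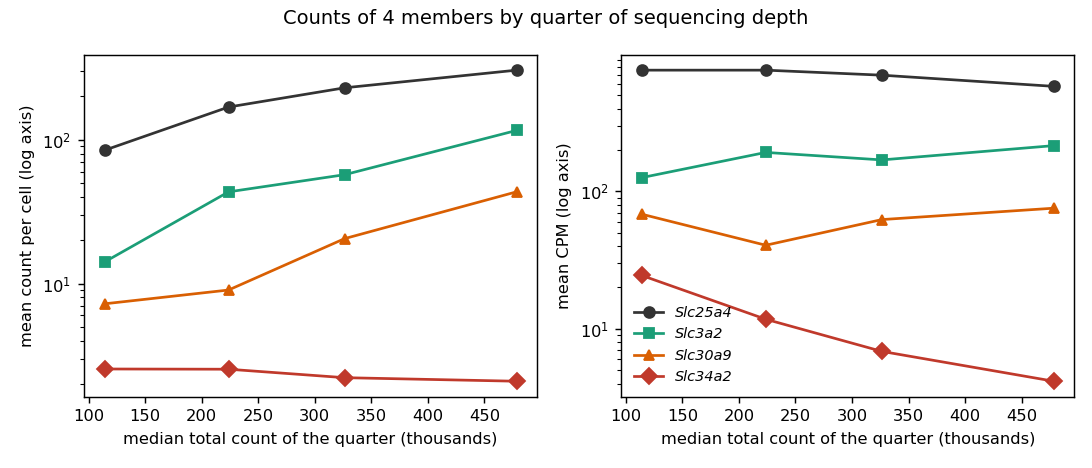
Mean count per cell (left) and mean CPM (right), on log axes, of 4 members in 4 equal sets of cells by total count, placed at the median total of each set. The mean counts of Slc25a4, Slc3a2 and Slc30a9 rise with depth, and that of Slc34a2 stays between 2.09 and 2.54.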

How the data were processed

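Heart cells were sorted into plates and made into Smart-seq2 libraries. According to the methods, single 50-base reads were trimmed by the authors with Trim Galore, who then aligned them to GRCm38 with TopHat2 and Bowtie, and counted them per gene with featureCounts. The methods also state a removal of doublets from the alignments with samtools, and whether this took out duplicate reads is not said. The deposited values are raw counts per gene and cell, without molecular identifiers, so how far PCR copies count as reads is unknown. The submitters' processing notes name bcl2fastq, Bowtie, Bowtie2, featureCounts and Subread, and the versions the study states are not repeated here. The annotation release and strand setting are not given in the sources used here, so reads of overlapping genes cannot be told apart. Clusters are those of the labels and were made from the same counts.

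From the deposited counts, CPM was computed per cell without the 92 spike-ins (1.82% of counts), and members were genes with a mean of 10 CPM or more. For tests, counts were summed per strain and group of clusters where at least 3 cells stood on both sides. The strain was the replicate. edgeR 4.0.16 (R 4.3.3) was run with TMM scaling, a minimum count of 10 by filterByExpr, quasi-likelihood F tests and Benjamini-Hochberg adjustment at 0.05. SE is the log2 fold change divided by the root of F. The fit was tested on simulated data. DESeq2 1.42.0 and limma-voom 3.58.1 were alternatives, with DESeq2 size factors, no filter, strain as a replicate block, each strain left out, clusters 1 and 6 left out, and other level rules for members. Both sides of a reporter strain share a plate, which pairs them, and deviations of the sides within a strain correlated by 0.0249 to 0.191 in the comparison of fibroblasts and mural cells, 0.0564 to 0.147 for cluster 1, 0.0382 to 0.141 among mural clusters and 0.123 to 0.272 for clusters 2 to 4.

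Summed counts ran from 8634092 to 165964970 per strain and side in that comparison, and Wilson intervals and floors (3 counts) cover counting error only. Coordinates are from GENCODE M21 (GRCm38). The members and gene lists were chosen with earlier results of these data known. Genes named were the 10 highest per kb, up to 10 per comparison and direction with a passing test and the same direction in every strain, 17 with known roles, those next to the level of 10 CPM, those within 500 kb of a reporter gene, and those at least 3 times higher in 1 cluster, and others are said to be chosen after their values were seen. Some results are not reported here.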

Additional observations from a re-analysis of the deposited data

Results flagged for a closer look

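Among 37 members looked at in 4 strains on each side, 74 groups in all, 4 groups had 1 strain set apart from the others by more than Dixon's critical value, and chance gives about 1 in 20. Slc25a11, the mitochondrial oxoglutarate carrier, had 113.8 CPM in Cspg4dsRED mural cells, where the other strains had 241.05 to 257.2 CPM. Slc38a1, a neutral amino acid carrier, had 17.4 CPM in Acta2GFP fibroblasts, where the others had 0.569 to 2.85 CPM. In clusters 2 to 5 alone Acta2GFP had 3.88 CPM and the others 0.0932 to 2.94 CPM, so most of that level came from cluster 1. Slc39a1, a zinc carrier, had 339 CPM in C57BL6 fibroblasts, where the others had 105.4 to 144.98 CPM. Slc6a6, the taurine carrier, had 43.01 CPM in Acta2GFP mural cells, where the others had 65.1 to 67.6 CPM.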

How the results depend on the processing

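Between fibroblasts and mural cells 9 members passed in edgeR (6.29%, against 5.93% of all genes), 16 in DESeq2 (11.2%, against 12.7%) and 15 in limma-voom (10.5%, against 9.55%). With DESeq2 size factors 10 passed, beside 907 of 15117 genes in all, and without a filter 8 (5.56%, against 2.58% of all genes). Without clusters 1 and 6, 10 passed, beside 1049 of 14432 genes. With any 1 strain left out 5 to 6 passed, beside 409 to 605 genes. With strain as a replicate block 7 passed (4.9%, against 4.81% of all genes), and Slc12a2 and Slc38a11 were lost. For cluster 1 the 1 member became 4 in DESeq2 (2.86%, against 5.22% of all genes). The count was 0 without C57BL6, where 35 of 13217 genes passed, and stayed 1 without any other strain. Between clusters 8 and 7 the count of 0 became 5 in DESeq2 and 1 in limma-voom. In DESeq2 it became 5 for cluster 6 and 1, 2, 2 and 1 for clusters 2, 3, 4 and 5, with the shares given above. Without a filter it became 1 for cluster 5 (0.694%, against 0.119% of all genes). Directions turned for 3 named genes whose mean rested on few cells. For Slc20a1 in cluster 1 the log2 fold change of 2.15 became -0.00613 in limma-voom and ran from -0.26 to 3.42 with a strain left out. For Slc25a16 in cluster 6 it went from 3.87 to between -0.94 and 3.85 with a strain left out. For Slc2a3 in cluster 6 it went from 1.51 to -0.85 in limma-voom, -0.41 with the replicate block and between -1.27 and 2.18 with a strain left out. The cause of these changes was not tested. Of the members, 97.9% were kept by a level from summed counts, 99.3% by a mean over strains, 73.6% at 20 CPM and 100% at 5 CPM. Groups of 2 to 4 strains, some of 3 cells, limit what could pass.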
